A study of Mus musculus with 2 samples.

Results

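The 7 genes described here encode the core of the MHC class II presentation pathway and were chosen by name: H2-Aa, H2-Ab1, H2-Eb1, Cd74, Ciita, H2-DMa and H2-DMb1. All 7 were found among the 32285 genes of the count tables. They were measured by single-cell RNA sequencing of 2 postischemic mouse kidneys. Both mice were male C57BL/6 animals aged 9 weeks, and both kidneys were taken 24 h after bilateral ischemia-reperfusion. The control mouse was given saline, and the other was given JPI-289, an inhibitor of poly(ADP-ribose) polymerase, at 100 mg/kg into the peritoneal cavity immediately before reperfusion. There was 1 library per condition, so each value compares 2 libraries, no test between the conditions could be made, and the conditions cannot be told apart from differences between the 2 mice or their preparations.

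MHC class II molecules are pairs of an alpha and a beta chain that display peptides on the cell surface to CD4 T cells. H2-Aa and H2-Ab1 encode the alpha and beta chains of the A molecule. H2-Eb1 encodes the beta chain of the E molecule, whose alpha chain is not expressed in C57BL/6 mice. Cd74 encodes the invariant chain, which fills the peptide groove until the molecule reaches the endosome. H2-DMa and H2-DMb1 encode chains of H2-DM, which exchanges the remnant of the invariant chain for peptides. Ciita encodes the transactivator that controls these genes. Dendritic cells and B cells carry the pathway constitutively, while macrophages and, more weakly, endothelial and tubule cells are known to gain it under interferon gamma.

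In GRCm38, H2-Aa lies at chr17:34282744-34287823 on the minus strand. H2-Ab1 (chr17:34257689-34269419), H2-Eb1 (chr17:34305867-34316674), H2-DMa (chr17:34119541-34139101) and H2-DMb1 (chr17:34153072-34160230) lie in the same region on the plus strand. Ciita lies at chr16:10480059-10528418. The annotated span of H2-DMa overlaps Brd2 on the other strand and CR974462.3 on its own, so the assignment of its reads is less certain than that of the other genes.

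Promoters of class II genes share an X box, bound by RFX, and a Y box, bound by NF-Y, on which the transactivator assembles. The sequences of H2-Aa and H2-Eb1 are shown because the ratio of these genes differed between the libraries. Each is a stretch of 100 bases upstream of the RefSeq gene start (GRCm38.p6), read along the strand of the gene, at chr17:34287834-34287933 for H2-Aa and chr17:34305757-34305856 for H2-Eb1. Capitals mark GNAAC and, downstream of it, TGATTGG.
H2-Aa: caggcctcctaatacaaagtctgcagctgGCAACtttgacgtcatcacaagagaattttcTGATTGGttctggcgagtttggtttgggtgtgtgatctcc
H2-Eb1: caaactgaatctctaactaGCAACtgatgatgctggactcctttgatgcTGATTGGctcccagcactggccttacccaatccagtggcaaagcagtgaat
The starts of the motifs were 31 bases apart in H2-Aa and 30 in H2-Eb1, and TGATTGG began 50 and 61 bases before the gene start. On either strand of all RefSeq promoter windows, the pair with starts 25 to 35 bases apart was found in 106 of 32851 (0.323%), whereas GNAAC was found in 84.8% and TGATTGG in 7.82%. At this spacing the letters of the motifs do not overlap. The windows of H2-DMb1, H2-Oa, H2-Ob and H2-Eb2 also held the pair, and those of H2-DMa and H2-DMb2 did not hold the pair at this spacing, although TGATTGG alone began 92 bases before the start of H2-DMb2. The letters were chosen after the sequences had been seen, so the match is a description.

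The control library held 38328760 unique molecular identifiers (UMIs, each a counted RNA molecule) and the JPI-289 library 35548396. Cells numbered 3750 and 5045, with medians of 2056.5 and 1866 UMIs, and 23 barcodes were shared by the cells of both libraries. Cells were clustered with the class II genes left out of the clustering, and classes were named from marker lists. Because the same lists named the classes, the markers found in a class describe it and do not test its name. UMIs were found in both libraries for 11 of 11 macrophage and 11 of 11 monocyte genes in the class of that name. The same held for 10 of 10 endothelial and 12 of 12 proximal tubule genes. In the B cell-like cells 6 of 8 B cell genes had UMIs. The macrophage-like clusters were largely made up of cells from a single library, with sub-clusters of 3 control and 107 JPI-289 cells, of 90 and 0 cells, and of 39 and 55 cells. In this order, the mean log2 ratio of the macrophage genes over the median leukocyte sub-cluster was 0.77, 2.19 and 1.04. Levels are given as CPM, the UMIs of a gene for each 1000000 UMIs of the class. Brackets after a level hold the exact 95% Poisson interval and brackets after a log2 ratio the exact binomial interval. These intervals cover counting error only. Ratios are JPI-289 over control.

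**Figure D1:**
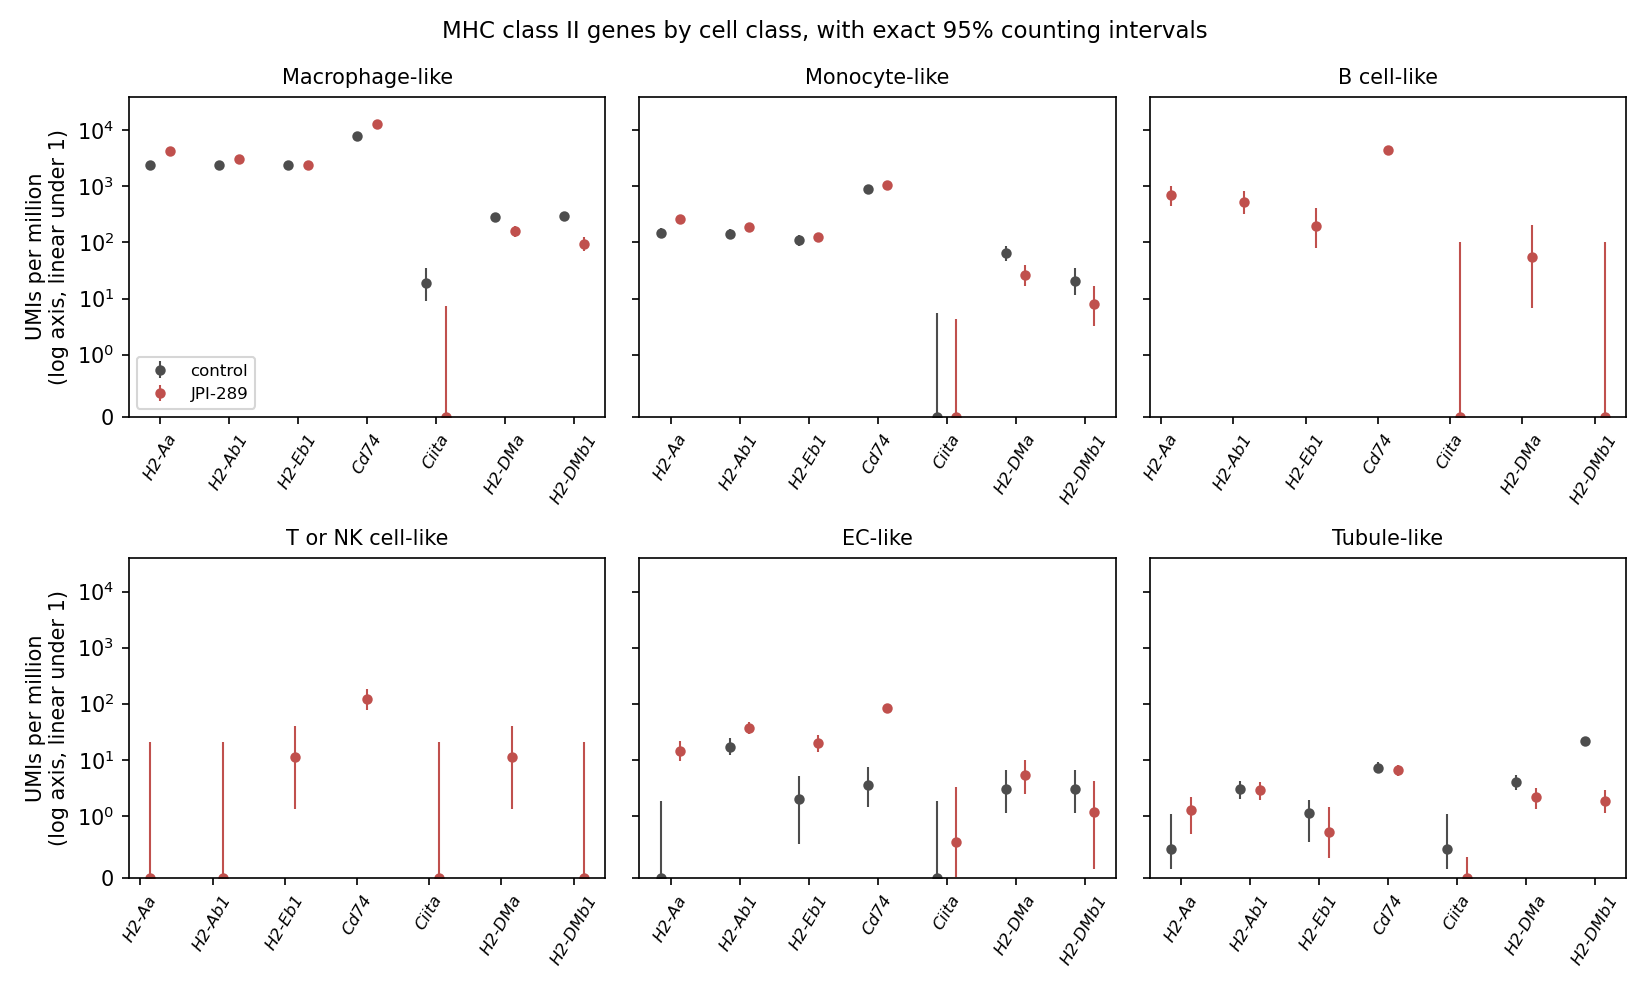
CPM of the 7 genes in 6 cell classes of the control (grey) and JPI-289 (red) library, on an axis that is logarithmic above 1. Points are class sums and bars exact 95% Poisson intervals; no control points are drawn for B cell-like cells (0 cells) or T or NK cell-like cells (5 cells). Apart from Ciita, which had few or no UMIs, levels in macrophage-like cells lie far above those in endothelial cell (EC)-like and tubule-like cells in both libraries.

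Macrophage-like cells carried most of the class II RNA among the classes described here. The sum of the 7 genes was 15660 CPM [15320, 16000] in 132 control cells and 22940 [22520, 23360] in 162 JPI-289 cells, which is a log2 ratio of 0.55 [0.51, 0.59]. This direction was not stable. It turned to -0.14 when cells had to hold at least 1000 UMIs and were clustered and named again. In that setting 51 JPI-289 cells with 8148 class II UMIs were named dendritic cell-like, against 5 control cells with 42. A further 88 control cells, with 6598, were still named macrophage-like. Names were given to whole clusters, and each of the 162 JPI-289 cells held UMIs of at most 1 dendritic cell marker. The ratio turned to -0.5 without cells with doublet scores in the top 5% of their library. The other cells were clustered and named again. Of the 162 JPI-289 cells, 22 were dropped and 125 were still named macrophage-like, with 4818 of the 11481 class II UMIs. Of the 132 control cells, 26 were dropped and 103 were still named macrophage-like, with 8112 of 8297. The rest were given another class or none, and the part of dropping and of new names in the change was not tested. The ratio of the sum grew to 1.72 among cells with a C1q UMI.

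The genes of the pathway did not move together. H2-Aa was at 2422 CPM in control and 4352 in JPI-289 cells (log2 ratio 0.85 [0.75, 0.95]). H2-Ab1, which encodes its partner chain, was at 2395 and 3053 (0.35 [0.24, 0.46]). H2-Eb1 was at 2440 and 2402 (-0.02 [-0.14, 0.09]). The alpha chain gene of the A molecule thus showed the largest of the 3 chain ratios. Cd74 was at 7812 and 12880 (0.72 [0.66, 0.78]). These signs also depended on which cells were counted. Without the highest doublet scores H2-Aa turned to -0.21, H2-Ab1 to -0.94 and Cd74 to -0.22, H2-Ab1 was also negative at 1000 UMIs or more, and H2-Eb1 was positive under 13 of 18 alternatives, up to 1.45. Cd74 lies at chr18:60803848-60812652 in GRCm38.

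Both H2-DM genes were lower in the JPI-289 library. H2-DMa gave 148 UMIs in control and 80 in JPI-289 cells (279.3 and 159.8 CPM, log2 ratio -0.8 [-1.22, -0.4]). H2-DMb1 gave 155 and 47 (292.5 and 93.9 CPM, -1.63 [-2.14, -1.16]). These signs were the same under each of the 18 alternatives run for either gene, from -1.75 to -0.27 for H2-DMa and from -2.72 to -0.81 for H2-DMb1. The sub-cluster of 39 control and 55 JPI-289 cells was the 1 macrophage-like sub-cluster with many cells of both libraries, with medians of 635 and 1068 UMIs. There H2-DMa gave 6 and 18 UMIs (log2 ratio 0.08 [-1.24, 1.78]) and H2-DMb1 gave 3 and 8 (-0.15 [-2.07, 2.54]). Both intervals also held the ratio of the whole class, so these low counts cannot show whether the difference was present there. The sum of the 7 genes had a ratio of 1.21 [1.03, 1.41] in this sub-cluster. Ciita gave 10 UMIs in 7 control cells and 0 UMIs in JPI-289 cells, where the upper bound of the interval was 7.37 CPM.

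With 2-fold as the call and at least 20 UMIs over both libraries, 6 of the 7 genes could be called in macrophage-like cells and Ciita could not. None of the 6 was called higher, against 10.0% of the 5921 genes measured, and H2-DMb1 was called lower, against 18.4%. The median log2 ratio was 0.16 over the 6 genes and -0.05 over all genes measured.

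Very few cells decided the control sum. The 3 richest control cells held 4916 of 8297 class II UMIs (59.25%), and the 3 richest JPI-289 cells held 2581 of 11481 (22.48%). Class II genes took 15.16%, 14.81% and 12.77% of all UMIs in these control cells and 13.14%, 11.16% and 10.4% in these JPI-289 cells. None of the 6 cells held a UMI of C1qa, C1qb or C1qc, the complement genes that mark tissue macrophages. The first 2 of the control cells held UMIs of Flt3, Cd209a and Clec10a, which mark dendritic cells, and 12 and 8 UMIs of H2-DMb2. UMIs of at least 2 dendritic cell markers were found in 6 control cells and 0 JPI-289 cells of the class. Over the whole dendritic cell list, the class held 212 UMIs of 7 of 11 genes in the control (400.1 CPM) and 19 UMIs of 5 genes in the JPI-289 library (37.96 CPM), with Xcr1, Siglech and Ccr9 at 0 in both.

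The remaining cells showed a larger difference than the sum. Without the 3 richest cells of each library, an omission chosen after the data had been seen, the levels were 6826 and 18610 CPM (log2 ratio 1.45). This omission selects on the class II UMIs themselves and takes a larger part of the control sum, so a higher ratio was built into it. In the median macrophage-like cell, class II genes gave 14.19 UMIs per 10000 in control and 62.3 in JPI-289 cells. The cells between the lower and upper quartile ranged from 4.272 to 47.85 and from 24.37 to 192.8, so the groups overlapped. Under 10 per 10000 were 43.18% of control and 10.49% of JPI-289 cells, and over 100 were 16.67% and 35.8%. Cells without a class II UMI numbered 21 of 132 and 9 of 162.

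**Figure D2:**
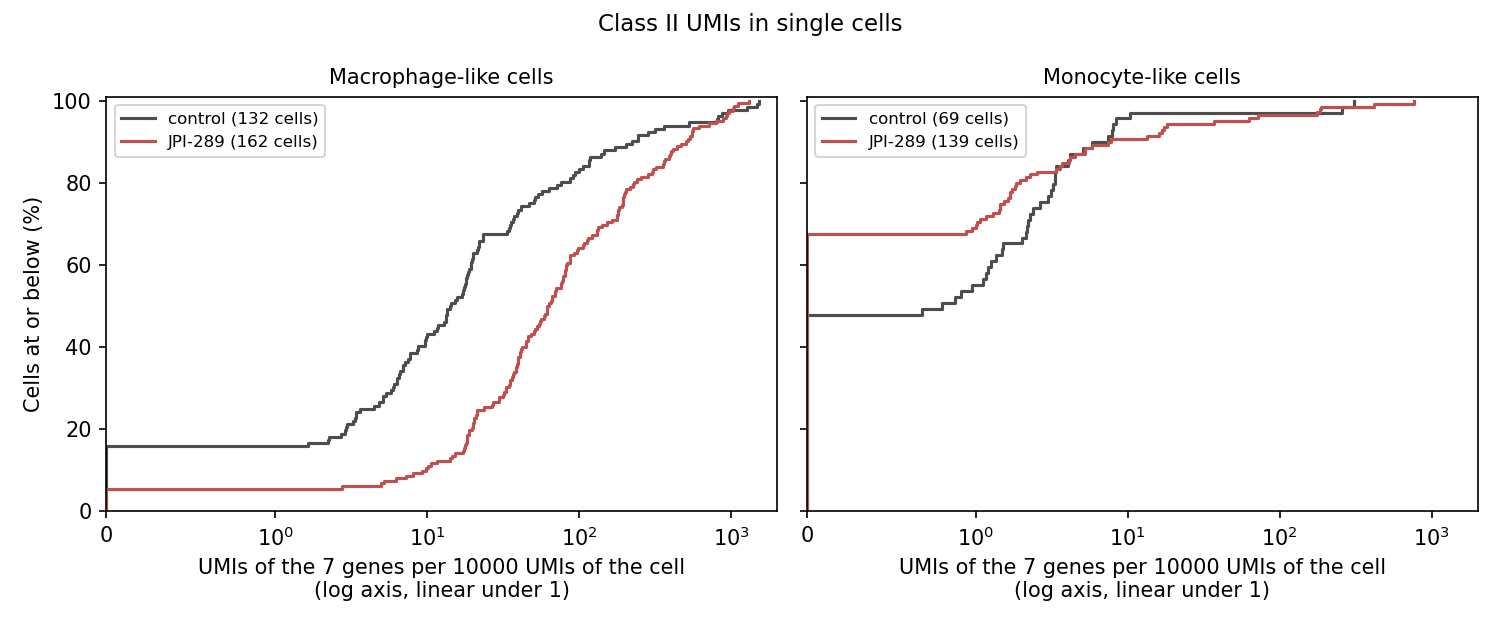
Cumulative share of macrophage-like (left) and monocyte-like (right) cells against the UMIs of the 7 genes per 10000 UMIs of the cell, on an axis that is logarithmic above 1, for the control (grey) and JPI-289 (red) library. The macrophage-like curves are shifted from a median of 14.19 in the control to 62.3 in the JPI-289 library and meet at their upper end, whereas most monocyte-like cells lie near 0 in both libraries.

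The difference was also present at equal depth. With 1000 UMIs drawn from each cell, and 37 control and 28 JPI-289 cells too shallow for this, a class II UMI was found in 65.26% [54.8, 74.74] of control and 94.03% [88.58, 97.39] of JPI-289 cells. Without thinning it was found in 84.09% and 94.44%, and the median cell held 3942.5 and 2824.5 UMIs. Cd74 alone was found in 50.53% and 82.84% of thinned cells. In proximal tubule (PT)-like cells the thinned share was 4.758% and 1.139%, with a median cell of 2233 and 1835 UMIs. This share is not a pure background, since H2-DMb1 gave 215 of the 377 control class II UMIs of PT-like cells.

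Among the 121 control and 145 JPI-289 macrophage-like cells with a C1q UMI, a subset chosen after the data had been seen, the sum was 5421 CPM [5214, 5633] and 17820 [17430, 18220], 3.287-fold higher in the JPI-289 library. H2-Aa went from 728.5 to 3416 CPM (log2 ratio 2.23 [2.06, 2.4]). H2-Ab1 went from 590.7 to 2240 (1.92 [1.73, 2.12]) and H2-Eb1 from 632.5 to 1636 (1.37 [1.18, 1.57]). Cd74 went from 3125 to 10340 (1.73 [1.64, 1.81]). The 3 chain genes and the invariant chain gene were therefore all called higher in these cells. H2-DMa, from 190 to 121.7 (-0.64 [-1.16, -0.14]), and H2-DMb1, from 146.1 to 69.85 (-1.05 [-1.72, -0.44]), kept the opposite sign. Of the 6 genes with enough UMIs, 4 were called higher, against 10.1% of 5583 genes, and 1 was called lower, against 18.5%. As many as 53 genes had a ratio at or above that of H2-Aa, and 136 at or above that of Cd74.

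**Figure D3:**
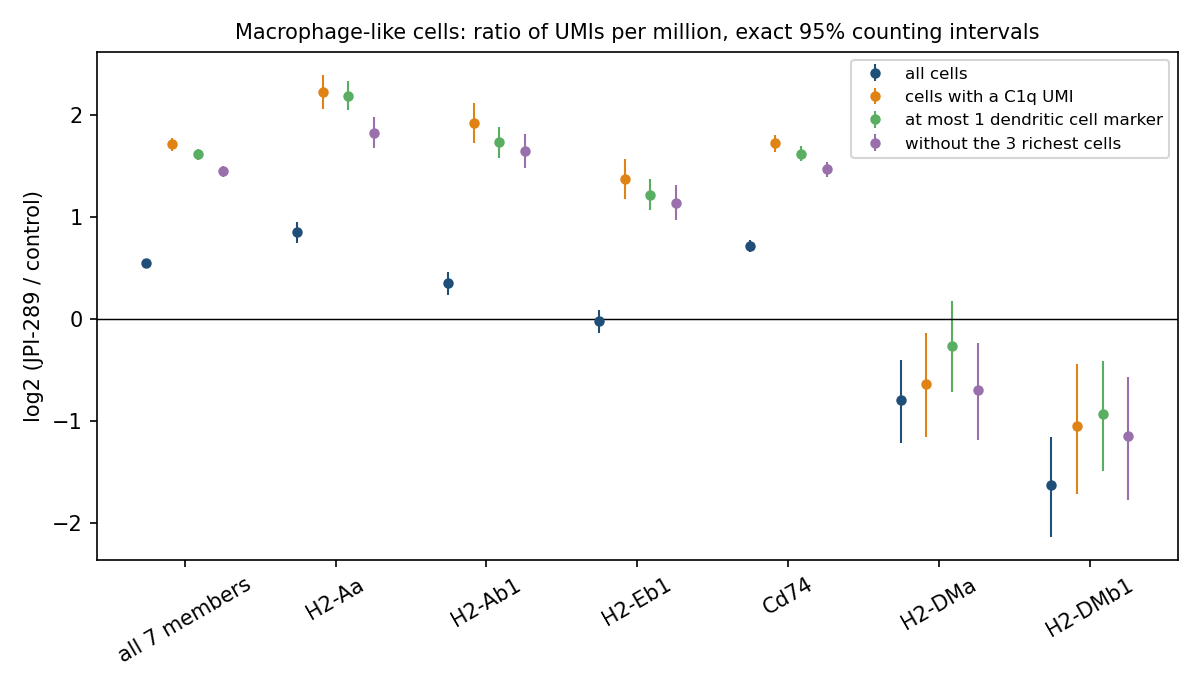
Log2 ratio of JPI-289 over control for the sum and for 6 genes in macrophage-like cells, with exact 95% binomial intervals, for all cells and for 3 subsets chosen after the data had been seen; Ciita is left out for its low counts. The chain genes and Cd74 lie above 1 in each of the 3 subsets, and H2-DMa and H2-DMb1 lie below 0 in all 4 sets, with the interval of H2-DMa crossing 0 among cells with at most 1 dendritic cell marker. The subsets are not separate checks, since each leaves out the 2 control cells richest in class II UMIs. The limit of 1 dendritic cell marker removes 6 control cells with 4693 class II UMIs and no JPI-289 cell.

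RNA typical of other cells differed between the macrophage-like cells of the libraries as well. The macrophage-like cells held 45 UMIs of the 5 red blood cell genes in control and 1909 in JPI-289 cells (84.93 and 3814 CPM). Among cells without such a UMI, 95 and 105, the log2 ratio of the sum was 0.82 [0.77, 0.87], and among cells with one it was -0.14 [-0.22, -0.06]. The neutrophil list was at 636.1 and 2310 CPM, with most of its UMIs in both libraries from Il1r2 alone, and the 11 macrophage markers themselves were at 20720 and 11410. The part of these differences in the class II levels was not tested. Free RNA, estimated from barcodes under 100 UMIs, accounted for 0.1489% and 0.1421% of the class II UMIs of the class.

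The ratio of the beta chain of E to the alpha chain of A differed between the libraries. For each 100 UMIs of H2-Aa there were 100.8 [93.22, 109] of H2-Eb1 in control macrophage-like cells and 55.19 [51.39, 59.24] in JPI-289 cells. For H2-Ab1 the figures were 98.91 and 70.16, and for Cd74 322.6 and 296. Among cells with a C1q UMI, H2-Eb1 was at 86.82 [74.19, 101.6] and 47.89 [43.77, 52.35] for each 100 of H2-Aa. In the sub-cluster of 39 control and 55 JPI-289 cells, H2-Eb1 was at 79.49 [47.95, 130.7] and 56.82 [46.92, 68.62], with overlapping intervals. H2-Ab1 was nearly equal there, at 61.54 [35.4, 104.9] and 61.36 [50.92, 73.79]. A ratio within a library does not depend on the total by which levels are scaled.

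Single cells showed the same order with overlap. In cells with at least 20 UMIs of H2-Aa and H2-Eb1 together, H2-Eb1 made up a median of 48.1% of these UMIs in 10 control cells, with a range from 40.83% to 58.06%. In 34 JPI-289 cells the median was 36.43%, with a range from 2.564% to 62.12%. The JPI-289 cells thus spanned the whole control range and extended beyond it at both ends. The limit of 20 UMIs selects cells rich in class II RNA, 10 of 132 in control and 34 of 162 in JPI-289. Whether they were the same kind of cell in both libraries was not tested.

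**Figure D4:**
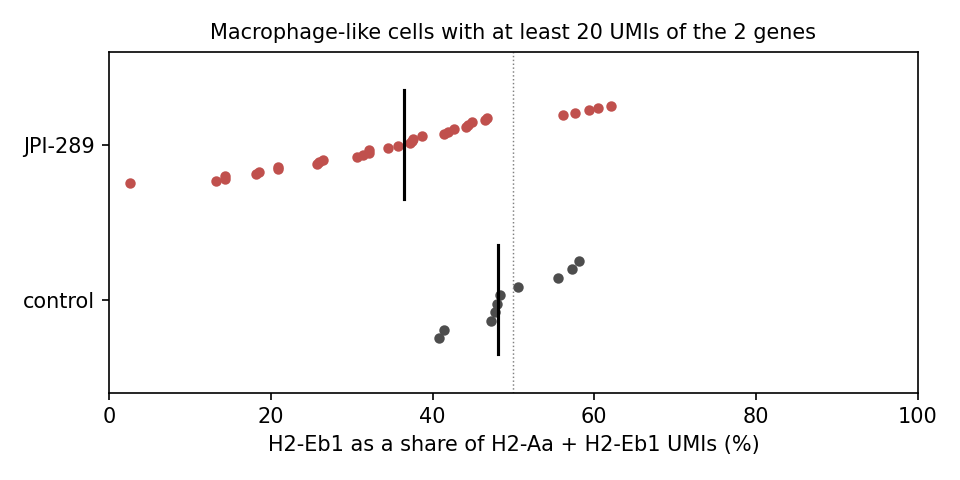
H2-Eb1 as a percentage of H2-Aa plus H2-Eb1 UMIs in each macrophage-like cell with at least 20 of these UMIs; each point is a cell, spread vertically by rank, and black bars are medians. The 10 control cells lie between 40.83% and 58.06%, and 6 of these 10 and 29 of the 34 JPI-289 cells lie below 50%.

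The H2-DM genes differed most from the chains. H2-DMa gave 11.54 UMIs for each 100 of H2-Aa in control and 3.673 in JPI-289 cells, and H2-DMb1 gave 12.08 and 2.158. Cells with a UMI of either H2-DM gene numbered 72 of 132 and 48 of 162, while cells with UMIs of all 3 chain genes numbered 30 and 76. More JPI-289 cells thus held all chain genes and fewer held an H2-DM gene. These counts were not thinned to equal depth, and the median cell held 3942.5 UMIs in control and 2824.5 in JPI-289 cells. The part of depth in the H2-DM counts was not tested.

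Of the other class II genes, H2-DMb2, a second H2-DM beta chain gene, had enough UMIs to be called in macrophage-like cells and gave 24 UMIs in control and 1 in JPI-289 cells. Of the 24, the 3 control cells richest in class II UMIs held 12, 8 and 2. H2-Oa and H2-Ob, whose products restrain H2-DM, gave 14 and 3 and 7 and 1 UMIs. Of 5 promoter factors with enough UMIs, Rfxap, a subunit of RFX, was called higher (39.64 and 125.9 CPM, log2 ratio 1.64), and none was called lower; Nfyc, a subunit of NF-Y, was at 39.64 and 25.97. In the interferon gamma arm no gene was called higher, and the receptor gene Ifngr1 was at 551.1 and 557.4 and the kinase gene Jak1 at 141.6 and 159.8. Ifng itself had 0 UMIs in both libraries.

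Of 9 genes that process antigen or the invariant chain, Ctsz was called lower (851.2 and 419.6 CPM, -1.02) and none was called higher. Ctss, the protease that trims the invariant chain, was at 2333 and 3055 (0.39), and Cst3, a cysteine protease inhibitor, at 2106 and 1215 (-0.79). Of 3 turnover genes, March1, a ubiquitin ligase that removes class II molecules from the surface, was called higher (62.28 and 137.9, 1.13), as was Il10, which gave 0 and 31 UMIs, and Cd83, which restrains March1, was at 503.9 and 547.4. None of 4 costimulation and checkpoint genes was called in either direction, with Cd86 at 326.5 and 231.8 (-0.49) and Cd274 at 28.31 and 51.95 (0.86). None of 6 genes of the class I pathway was called, with a median log2 ratio of 0.24 and values of 0.16 for H2-D1 and 0.52 for B2m.

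Monocyte-like cells held less class II RNA. The sum was 1392 CPM [1304, 1484] in 69 control cells and 1647 [1563, 1735] in 139 JPI-289 cells (log2 ratio 0.24 [0.12, 0.36]). It rested on few cells, since 2 cells in each library held 50% or more of the UMIs and the 3 richest held 90.8% and 72.52%. Without these 3 cells the levels were 136.5 and 465.9 CPM (1.76). This omission also selects on the class II UMIs and takes a larger part of the control sum, so a higher ratio was built into it. The sign of Cd74 turned under 7 of 14 alternatives and that of H2-Aa under 5. Among them was the omission of an Arg1-rich sub-cluster of 26 control and 2 JPI-289 cells, which moved the ratio of the sum to -0.54. The median control cell held 0.8037 class II UMIs per 10000 and the median JPI-289 cell 0.

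Among the members in monocyte-like cells, H2-Aa was at 147.4 and 260.5 CPM (0.82 [0.47, 1.18]), and Cd74 was at 906.9 and 1042 (0.2 [0.05, 0.35]). H2-DMa gave 44 and 23 UMIs (-1.28 [-2.09, -0.54]) and H2-DMb1 14 and 7 (-1.31 [-2.91, 0.04]). The H2-DM genes had a negative ratio here as in macrophage-like cells, under each of the 14 alternatives. Of 6 genes with enough UMIs, none was called higher, against 10.8% of 6689 genes, and both H2-DM genes were called lower, against 12.8%. H2-Eb1 was at 74.75 [54.55, 102] for each 100 UMIs of H2-Aa in control and 47.11 [37.04, 59.61] in JPI-289 cells. Of the pathway lists, Cd274, which encodes the checkpoint ligand PD-L1, was called higher (25.31 and 105.4, 2.02), as was the peptide transporter gene Tap1 (10.42 and 25.47, 1.22), and Nfya, a subunit of NF-Y, was called lower (23.83 and 8.104, -1.5).

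Lymphocyte-like cells could not be compared, since the control library held 5 of them and no B cell-like cell. The 18 B cell-like cells of the JPI-289 library had a class II level of 5891 CPM [5122, 6744], and each of the 18 held Cd74. Cd74 was at 4405 CPM [3743, 5150], H2-Aa at 701.4, H2-Ab1 at 533 and H2-Eb1 at 196.4, with 2 UMIs of H2-DMa and 0 of Ciita and of H2-DMb1. A single cell held 89 of the 210 class II UMIs, and without the 3 richest cells the level was 3165 CPM. The 78 T or NK cell-like cells gave 143.5 CPM [93.75, 210.3] from 26 UMIs in 4 cells, of which free RNA could account for 29.74%. In the 5 control cells no class II UMI was found, and the upper bound of the interval was 385.9 CPM.

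EC-like cells gave 57 class II UMIs in 502 control and 277 in 569 JPI-289 cells, or 28.89 [21.88, 37.44] and 161.9 [143.4, 182.2] CPM. A single JPI-289 barcode held 242 of the 277. It also held 92 UMIs of the macrophage list, 37 of them of C1q genes, beside 93 of the endothelial list. Without the richest cell of each library the levels were 27.18 and 20.56 CPM, and the log2 ratio turned from 2.48 to -0.4. With that cell included, 4 of 4 genes with enough UMIs were called higher, against 5.15% of 9735 genes, and none was called lower, against 18.6%. The same 1 cell lay behind the calls of H2-Ab1 and H2-Eb1, whose log2 ratios turned to -0.97 and -1.39 without it. Of the other called genes, Cd74 fell from 4.45 to as low as 0.2 among the alternatives, and H2-Aa from 5.88 to as low as 2.28. H2-Aa gave 0 UMIs in control and 25 in JPI-289 cells, so the size of its ratio depended on the fraction of a UMI added in ratios. The 2.28 therefore does not show a higher level of H2-Aa apart from this cell. Without the richest cell, 35 class II UMIs over all the genes were left in the JPI-289 library. Free RNA at its estimated share would give 76.81 in the whole JPI-289 class, and 16.4 of the 25 UMIs of H2-Aa.

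In control EC-like cells, H2-Ab1 made up 34 of the 57 class II UMIs, at 17.24 CPM [11.94, 24.08], whereas H2-Aa gave 0 and Cd74 7. Of these 34 UMIs, 28 were in a cluster of 202 control cells (25.9 CPM [17.21, 37.43]). Free RNA at its estimated share would give 62.03 class II UMIs in the class, so the sum was not above that estimate. The estimate is itself too high for Cd74, at 22.42 against the 7 UMIs found. For H2-Ab1 alone it would give 8.968 of the 34 UMIs (26.38%). Thinned shares of EC-like cells with a class II UMI were 3.857% and 1.609%, against 4.758% and 1.139% of PT-like cells. The control PT-like share was largely of H2-DMb1 (215 of 377 class II UMIs), so it does not serve as a background. Of 6 promoter factors with enough UMIs, Rfxank (9.125 and 4.092 CPM, -1.1) and Nfya (23.32 and 11.11, -1.05) were called lower in EC-like cells and none was called higher.

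Tubule-like cells had a class II level of 37.55 CPM [33.97, 41.4] over 2411 control and 15.36 [13.11, 17.88] over 2759 JPI-289 cells (log2 ratio -1.29 [-1.56, -1.03]). H2-DMb1 made up most of the difference, with 228 control and 20 JPI-289 UMIs (21.24 and 1.85 CPM, -3.49 [-4.26, -2.86]). The sum of the other 6 genes had a ratio of -0.27. Cd74 was at 7.267 and 6.476 CPM (-0.17 [-0.65, 0.32]), H2-Ab1 at 2.981 and 2.868, and H2-DMa at 4.006 and 2.128. Of 5 genes with enough UMIs, H2-DMb1 was called lower, against 20.2% of 12492 genes, and none was called higher, against 7.04%. Free RNA at its estimated share would account for 29.06% of control and 96.89% of JPI-289 class II UMIs. For H2-DMb1 it would account for 9.282% and 9.036%. The estimate is too high for some genes, at 310.4% and 245.3% of the H2-Aa UMIs found and 126.5% of those of JPI-289 Cd74. In PT-like cells alone it came to 23.62% and 51.48% of the sum.

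Most control H2-DMb1 UMIs lay in PT-like cells. These gave 215 UMIs in 1799 control and 11 in 1658 JPI-289 cells (26.47 [23.05, 30.25] and 1.496 [0.7466, 2.676] CPM, log2 ratio -4.08 [-5.17, -3.28]). In PT-like cells 23.5% of 11313 genes were called lower. The sign was the same under each of 13 alternatives, with ratios from -4.84 to -2.65. H2-DMb1 was found in 152 control cells (8.449%) and 10 JPI-289 cells (0.6031%), and in 2.751% and 0.2629% after thinning to 1000 UMIs.

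H2-DMb1 was largely alone in these cells. Of the 152 control cells, 117 held a single UMI of it and the richest held 12. UMIs of Cd74 or a chain gene were found in 18 of the 152, C1q in 1, and any of the 11 macrophage-list genes, which include Apoe, in 66. A cluster of 583 control cells with Cyp4a14 and Pck1 among its leading genes held 160 of the 215 UMIs (41.93 CPM [35.69, 48.96]), and the other 3 control clusters ranged from 6.535 to 17.85. The 3 JPI-289 clusters ranged from 0 to 3.068. These JPI-289 clusters scored highest for a list of injured PT genes, which includes Havcr1 and Krt20, at 1.81, 2.15 and 2.07. The PT list came next, at 0.93, 2.13 and 1.3. The control clusters scored highest for the PT list. Since each PT-like cluster was largely of a single library, the cluster, its injury markers and the condition cannot be told apart. Control cells with the gene were deeper, with a median of 7112 UMIs against 2053 in those without it.

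**Figure D5:**
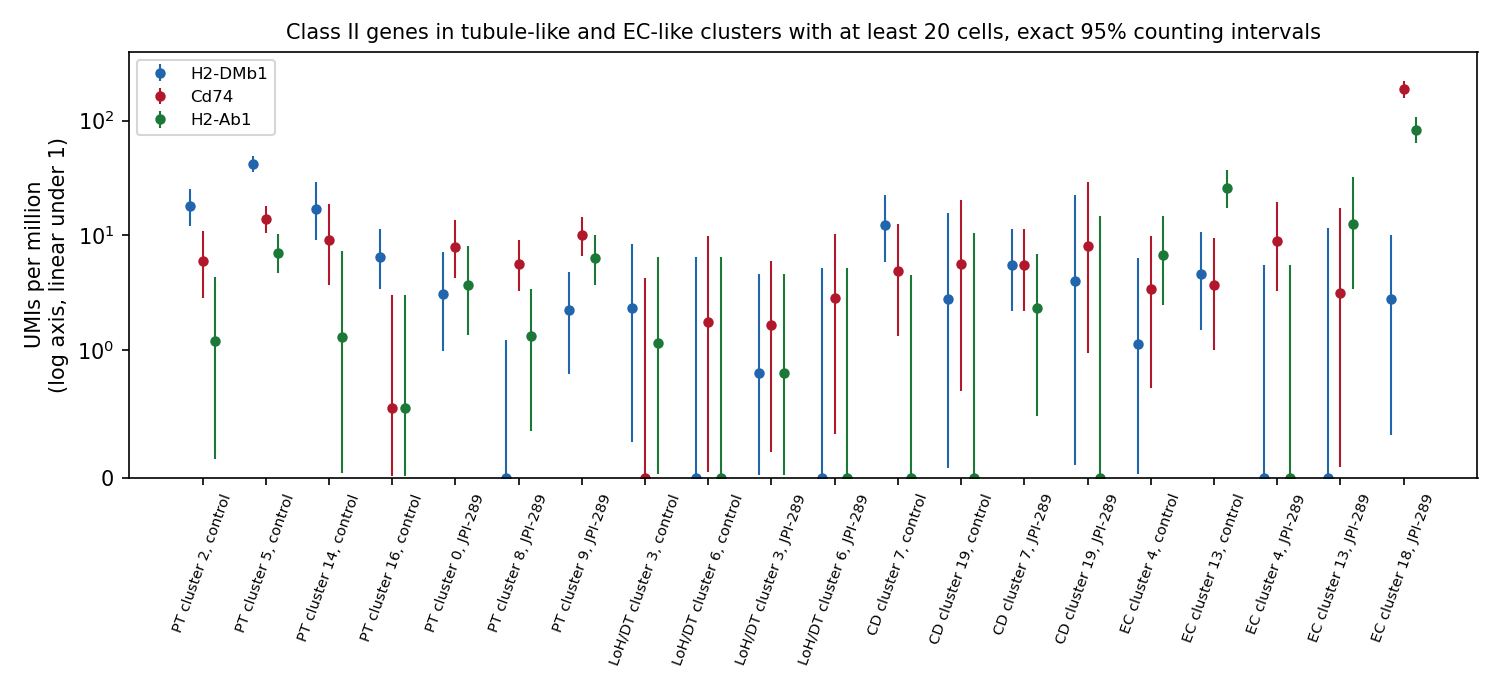
CPM of H2-DMb1 (blue), Cd74 (red) and H2-Ab1 (green) in the clusters of PT-like, loop of Henle or distal tubule (LoH/DT)-like, collecting duct (CD)-like and EC-like cells, by library, for clusters with at least 20 cells of that library, on an axis that is logarithmic above 1, with exact 95% Poisson intervals. H2-DMb1 is highest in PT cluster 5 of the control (41.93 CPM), and Cd74 is highest in EC cluster 18 of the JPI-289 library, which holds the cell with 242 class II UMIs.

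In the other tubule classes the counts were too low for a comparison. Loop of Henle or distal tubule-like cells gave 8 and 13 class II UMIs (5.574 and 6.754 CPM) and collecting duct-like cells 18 and 27 (15.32 and 17.65). H2-DMb1 gave 11 and 8 UMIs in collecting duct-like cells (9.363 [4.674, 16.75] and 5.228 [2.257, 10.3] CPM, log2 ratio -0.82 [-2.36, 0.61]), and in the JPI-289 library its interval overlapped that of PT-like cells. Of the pathway lists in all tubule-like cells, Irf1 (23.2 and 9.066 CPM, -1.35), of the interferon gamma arm, was called lower. The tubule classes differed, since Irf1 was called lower in PT-like and collecting duct-like cells but higher in loop of Henle or distal tubule-like cells. Ifngr2, a chain of the interferon gamma receptor (24.04 and 50.51, 1.07), and the protease gene Ctsl (606.9 and 1474, 1.28) were called higher. Among the tubule classes Ifngr2 was called only in PT-like cells, where Ifngr1 was called lower.

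Across 21 points of class and library, the genes whose level was most like the sum of the 7 were Cd83 (Pearson r = 0.924), Psen2 (0.901), Ctss (0.897), Apobec1 (0.889) and Cd86 (0.887). Points of the same library share its preparation and depth, so these values are descriptions. Within macrophage-like cells the most alike were Cst3 (mean r of both libraries 0.457), Ifi30 (0.35), Cd52 (0.341), Rpl6 (0.312) and Tyrobp (0.309), which are weak correlations in sparse counts.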

How the data were processed

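The authors aligned the reads of a 5′ kit to mm10 with Cell Ranger 5.0.1 and deposited raw UMI counts for all 737280 barcodes of each library. The published normal kidneys were not used here. Cells were called by total UMIs, then among barcodes with at least 500 UMIs against nearly empty barcodes (10000 simulations, false discovery rate 0.01), and kept at up to 50% mitochondrial UMIs. Scanpy 1.11.5 was used with 2000 variable genes, 30 components, 20 neighbours and Leiden resolution 1, on leukocytes again, without integration of the libraries. Scrublet, which also gave the doublet scores, marked 1 cell per library and did not work, so doublets remain. Counts were summed per class, with 0.5 UMI added in ratios, and genes were called past 2-fold. Named are all 7 genes, pathway genes past 2-fold, well-counted genes of each list, and the 5 most alike genes. The ratios, intervals, 2-fold calls, thinning and free RNA share were tested on simulated counts. Cell calling, clustering, class names and doublet scores were not. The simulated counts had no uneven spread over cells, so they do not test the intervals where few cells held most UMIs. The genes and lists were chosen with earlier results of these data known. Alternatives changed cell calling, depth, mitochondrial limit, doublets, clustering, class definition, scaling, cell weight, free RNA, pseudocount and gene minimum. Results that need withheld items are not reported here.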

Additional observations from a re-analysis of the deposited data

Results flagged for a closer look

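The sum of the 7 genes had a log2 ratio of -1.29 in tubule-like cells against 0.55 in macrophage-like cells, so the same contrast took opposite signs in these classes. The difference between the classes was not tested, and the tubule ratio rested on H2-DMb1. For this gene alone the signs did not differ, since its ratio in macrophage-like cells was -1.63. The sign of the macrophage-like sum also depended on which cells were counted.

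Stroma- or mural-like cells, which belong to none of the classes compared above, had a class II level of 2160 CPM in the JPI-289 library against 11.6 in the control, and 873 of the 878 JPI-289 UMIs came from 1 cell. This cell held 15 UMIs of the stroma list, 6 of the macrophage list, 2 of Cd209a and 1 of Flt3.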

How the results depend on the processing

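No paired analysis was possible because each condition had 1 library. For macrophage-like cells, the log2 ratio of the sum was 0.55, and it was 1.65 with the first step of cell calling alone, -0.14 at 1000 UMIs or more, 1.13 at up to 20% mitochondrial UMIs, -0.5 without the 5% highest doublet scores, 1.17 with class II genes kept for clustering, 1.68 with cells placed by their own markers, 0.6 when centred on the median gene and 0.78 as a mean of cells. Among alternatives chosen after seeing the data it was 1.45 without the 3 richest cells, 1.72 with a C1q UMI, 1.62 with at most 1 dendritic cell marker, 0.82 without red blood cell UMIs and 1.15 with the Arg1-rich sub-cluster counted. For monocyte-like cells (0.24) the first 6 of these choices gave -0.72, -0.92, -0.32, -0.1, -0.89 and -0.38, the mean of cells 0.61, omission of the 3 richest cells 1.76 and of the Arg1-rich sub-cluster -0.54.

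For EC-like cells (2.48) the ratio was 3.06 with the first step and 1.18 as a mean of cells, and it turned to -0.57 without high doublet scores, -0.93 by own markers, -0.4 without the richest cell and -0.4 without cells with 10 or more macrophage UMIs. Under these 4 settings H2-Ab1 was at -0.82, -1.38, -0.97 and -0.97 and H2-Eb1 at -1.38, -1.26, -1.39 and -1.39. Free RNA subtraction left no value for EC-like cells. For tubule-like cells (-1.29) it was -0.71 as a mean of cells, -5.67 after free RNA subtraction and -0.27 without H2-DMb1. The -5.67 has little meaning, since the free RNA estimate exceeded the UMIs found for some of these genes. The JPI-289 lymphocyte level of 1088 CPM was 9283 with the first step, where 24 of 50 cells were macrophage- or monocyte-like before, 953.2 without high doublet scores and 1305 by own markers.

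Genes called higher and lower numbered 595 and 1090 in macrophage-like cells, 108 and 220 at 100 UMIs and 992 and 2329 at 5. The counts at 100 and 5 UMIs were 187 and 1233 higher and 207 and 1642 lower in monocyte-like cells (720 and 854 at 20), and 288 and 790 higher and 525 and 2891 lower in EC-like cells (501 and 1812 at 20). In tubule-like cells 1549 were lower at 100 UMIs, against 2524. Shares thinned to 500 UMIs were 84.57% in JPI-289 macrophage-like, 1.594% in control EC-like and 1.742% in control tubule-like cells. Of 486 alternative values for single genes and PT-like cells, 359 moved by less than their counting interval, 119 moved by more and 8 turned a call. Only ratios past 2-fold in the main setting could turn a call. Sign changes of smaller ratios are counted among the 359 and 119, such as those of H2-Eb1 in macrophage-like cells under 13 of 18 alternatives. Low counts limit Ciita and the loop of Henle, the number of control cells limits lymphocytes, and causes of these changes were not tested.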
